A study of Homo sapiens with 6 samples.

Results

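Chromosome 12 carried 21492 of the 213235 distinct peaks in 4 ChIP-seq peak lists of ACHN, an established human renal carcinoma cell line, and its members are all peaks whose chromosome column reads chr12, with identical lines counted once. Members were thus chosen by the listed position of a peak and by its having been called, not by its score or its difference between genotypes. They comprised 9465 H3K27me3 peaks and 3296 EZH2 peaks in cells labelled ZCCHC8-WT (WT), and 6568 H3K27me3 peaks and 2163 EZH2 peaks in cells labelled ZCCHC8-KO (KO). ZCCHC8 is the scaffold of the nuclear exosome targeting (NEXT) complex, and the series asks how that complex relates to H3K27me3. Each genotype was untreated as far as the labels say and gave 1 library per antibody, whose peaks were listed against an input library of the same genotype, as the names of the lists state. No read depth is stated for any library. The labels do not say whether the KO cells are 1 clone or a pool. With 1 library per group differences between genotypes have no replicate check and were not tested. All values below are positions, widths and scores of listed peaks, so neither the cell type nor the loss of ZCCHC8 protein can be checked from them.

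Polycomb repressive complex PRC2 places methyl groups on lysine 27 of histone H3, and EZH2 is its catalytic subunit. The trimethylated form, H3K27me3, lies over silent developmental genes, often as broad domains, and is read by Polycomb complex PRC1. In differentiated epithelial cells such as those of the kidney, genes for other tissues (HOX and forebrain factors, neuronal channels, keratins of the skin, receptors of immune cells) are typical carriers of the mark. Chromosome 12 holds examples of each, among them the HOXC cluster, the type II keratin cluster, the natural killer gene complex of lectin receptors and a cluster of voltage-gated potassium channel genes. It also holds ZCCHC8 itself.

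Promoter sequence shows how these peaks lay relative to gene starts. RefSeq (GRCh38.p14) gave annotated starts for 765 of the 1024 protein-coding genes of the chromosome, 1050 in all. The 250 bases before a start met an H3K27me3 peak at 15 starts in WT and 12 in KO, 3 of them in both, and an EZH2 peak at 8 and 6, 2 of them in both. The dinucleotide CG, which reads the same on both strands, occurred a median of 16 times in the 250 bases of all starts, 1 and 2 times where H3K27me3 was listed in WT and KO, and 11 and 11.5 times where EZH2 was. The sequences below are the 6 with the most EZH2-covered bases in either genotype, and 2 with H3K27me3 in WT only (CLEC12B and PPFIA2, chosen after their values were seen). Each runs 5′ to 3′ toward the start, with every CG in capitals.
TSPAN8 (chr12:71157810-71158059, minus strand): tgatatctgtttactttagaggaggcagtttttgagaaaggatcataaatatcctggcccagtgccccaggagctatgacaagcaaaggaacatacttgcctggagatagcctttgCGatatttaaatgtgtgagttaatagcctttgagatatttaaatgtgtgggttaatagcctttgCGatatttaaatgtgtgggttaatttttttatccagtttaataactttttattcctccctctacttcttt
RFX4 (chr12:106582754-106583003, plus strand): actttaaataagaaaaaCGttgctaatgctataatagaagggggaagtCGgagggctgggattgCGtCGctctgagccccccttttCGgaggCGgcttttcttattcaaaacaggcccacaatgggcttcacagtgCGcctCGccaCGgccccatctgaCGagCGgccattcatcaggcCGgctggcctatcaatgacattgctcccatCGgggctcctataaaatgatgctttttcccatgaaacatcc
TBX5 (chr12:114408013-114408262, minus strand): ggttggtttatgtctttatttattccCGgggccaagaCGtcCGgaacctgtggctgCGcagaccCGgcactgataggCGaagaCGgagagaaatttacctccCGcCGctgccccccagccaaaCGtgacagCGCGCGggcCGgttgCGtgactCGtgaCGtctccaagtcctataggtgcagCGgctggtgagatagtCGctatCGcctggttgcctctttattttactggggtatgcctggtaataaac
TRHDE (chr12:72272120-72272369, plus strand): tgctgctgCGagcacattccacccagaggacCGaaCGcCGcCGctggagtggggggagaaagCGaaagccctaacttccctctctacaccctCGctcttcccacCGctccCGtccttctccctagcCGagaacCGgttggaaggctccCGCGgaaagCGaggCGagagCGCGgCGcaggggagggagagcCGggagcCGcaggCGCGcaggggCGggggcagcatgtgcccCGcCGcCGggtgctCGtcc
IQSEC3 (chr12:77126-77375, plus strand): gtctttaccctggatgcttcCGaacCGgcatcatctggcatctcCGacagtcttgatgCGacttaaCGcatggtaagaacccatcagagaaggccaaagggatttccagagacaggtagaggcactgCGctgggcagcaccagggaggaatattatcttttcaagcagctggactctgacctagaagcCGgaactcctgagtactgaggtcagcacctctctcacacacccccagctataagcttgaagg
AVPR1A (chr12:63151202-63151451, minus strand): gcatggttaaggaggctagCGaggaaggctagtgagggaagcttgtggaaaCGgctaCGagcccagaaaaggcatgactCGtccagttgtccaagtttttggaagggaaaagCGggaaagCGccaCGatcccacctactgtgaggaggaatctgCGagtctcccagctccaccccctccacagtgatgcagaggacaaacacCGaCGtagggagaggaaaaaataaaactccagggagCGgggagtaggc
CLEC12B (chr12:10010377-10010626, plus strand): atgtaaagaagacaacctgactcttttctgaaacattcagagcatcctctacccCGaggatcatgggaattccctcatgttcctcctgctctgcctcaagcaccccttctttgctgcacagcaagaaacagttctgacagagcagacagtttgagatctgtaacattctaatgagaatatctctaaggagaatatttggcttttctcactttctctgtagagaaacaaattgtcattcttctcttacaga
PPFIA2 (chr12:81598372-81598621, minus strand): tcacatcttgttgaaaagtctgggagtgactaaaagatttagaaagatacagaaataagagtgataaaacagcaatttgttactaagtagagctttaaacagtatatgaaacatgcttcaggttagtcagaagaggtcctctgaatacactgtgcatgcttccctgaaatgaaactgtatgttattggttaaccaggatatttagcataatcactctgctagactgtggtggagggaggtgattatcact

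The forebrain and ependymal factor gene RFX4 had EZH2 over 199 of these 250 bases in WT and all 250 in KO, with 13 CGs, a number that 59.05% of starts reached. TBX5, a heart and forelimb factor, had none in WT and 201 bases in KO, with 20 CGs. TRHDE, which encodes an enzyme that degrades a releasing hormone, had 165 bases in WT and none in KO, with 27 CGs, a number reached by 20.1% of starts. Both genotypes had EZH2 near that start. WT peaks joined across gaps of up to 3 kb ran from 72270053 to 72277226, covered to 57.2% in WT and 31.6% in KO. KO peaks so joined ran from 72274139 to 72280319, covered to 23.9% and 58.9%. Each choice of limits favours the genotype that set them. AVPR1A, the vasopressin V1a receptor, had 140 and none. IQSEC3, a synaptic exchange factor, had none and 153. TSPAN8, a tetraspanin with only 2 CGs, had EZH2 over all 250 bases and H3K27me3 over 98 of them in WT and no peak in KO. The H3K27me3-bearing stretches of CLEC12B, an inhibitory lectin receptor, and PPFIA2, a presynaptic scaffold protein, held 1 and 0 CGs, with 250 and 76 bases covered in WT and none in KO.

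**Figure D1:**
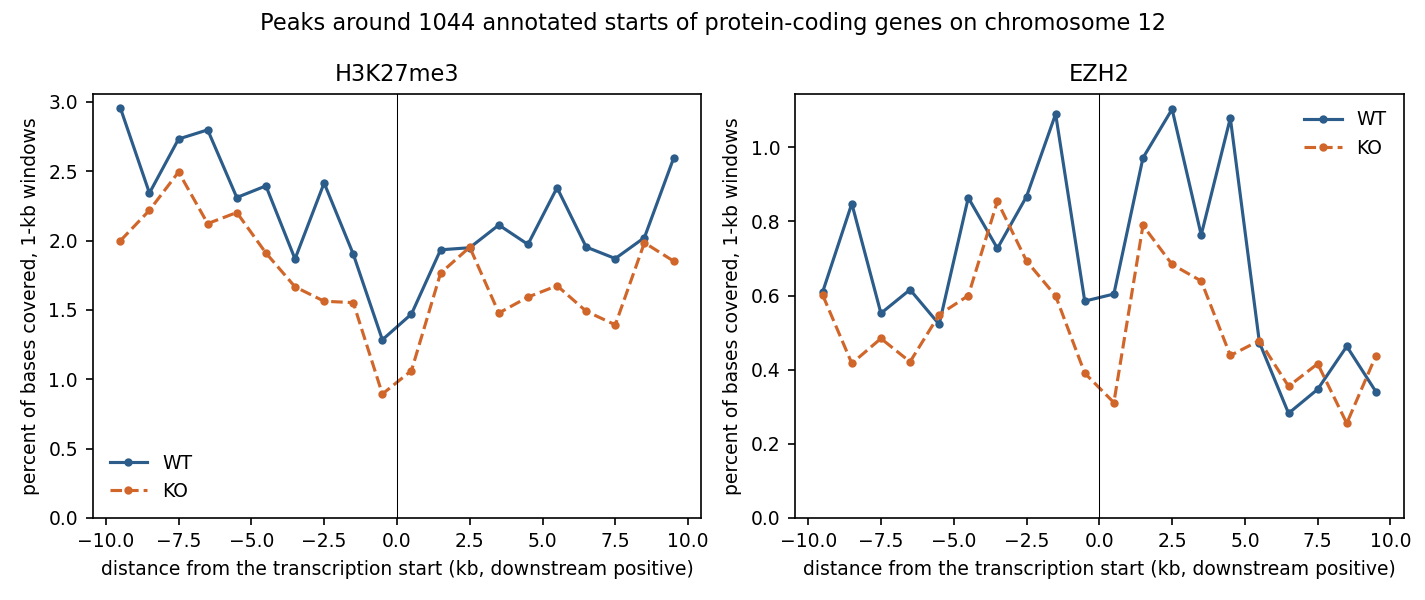
Percent of bases covered by peaks in 1-kb windows around 1044 distinct annotated starts of protein-coding genes on chromosome 12, oriented by strand, for H3K27me3 and EZH2 in WT (solid line) and KO (dashed line). All lines dip next to the start relative to the windows 1 kb further out, and in the window before the start H3K27me3 covered 1.28% of bases in WT and 0.893% in KO, against 2.96% and 1.998% in the window centred 9.5 kb upstream.

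H3K27me3 was thinnest directly at gene starts, and EZH2 was lower there than in the neighbouring windows. In the 1-kb window upstream of the start, EZH2 covered 0.585% of bases in WT and 0.391% in KO, compared with 1.09% and 0.599% in the next window upstream. Of the WT EZH2 peaks 7.22% (6.36 to 8.16) had their midpoint within 5 kb of a start, and of the KO EZH2 peaks 6.52% (5.52 to 7.64), in windows that make up 5.94% of the chromosome. These and all bracketed ranges of shares are exact 95% Clopper-Pearson intervals, which cover counting error only. EZH2 peaks listed in both genotypes lay closer to starts, with 20.9% (15.6 to 26.96) of 211 such WT peaks within 5 kb, against 6.29% (5.46 to 7.20) of the 3085 listed in WT only. For H3K27me3 the shares were 6.19% (5.19 to 7.31) of the 2085 shared and 3.92% (3.49 to 4.38) of the 7380 unshared WT peaks. Shared peaks were also wider, with a median of 430 bp against 278 bp for H3K27me3 in WT and 322 bp against 219 bp for EZH2. Sharing was scored by any overlap, which wider peaks reach more readily. Protein-coding genes span 47.4% of the chromosome and were met by 36.6% (35.7 to 37.6) of WT and 38.8% (37.6 to 39.95) of KO H3K27me3 peaks, and by 39.75% (38.1 to 41.4) and 35.8% (33.8 to 37.9) of EZH2 peaks.

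On the chromosome as a whole fewer peaks of both antibodies were listed in KO. The KO/WT ratio of H3K27me3 peak number was 0.694 (0.672 to 0.716, exact interval of the ratio of 2 counts) and that of EZH2 0.656 (0.621 to 0.693). The H3K27me3 ratio was the fifth lowest of 23 chromosomes (1 to 22 and X) and the EZH2 ratio stood at place 13 from the lowest. All other chromosomes together gave 0.757 and 0.634. H3K27me3 peaks covered 3.75 Mb in WT and 2.59 Mb in KO, and EZH2 peaks 0.865 and 0.634 Mb. Widths were alike, with medians of 298 and 299 bp for H3K27me3 and 222 and 245 bp for EZH2. The score that the authors attached to a peak, on a scale that is undefined and may differ between the lists, had a median of 8 in both WT lists, 7 in the KO H3K27me3 list and 6 in the KO EZH2 list. When peaks with a score under 7 were left out of both lists, the ratios were 0.426 and 0.316, outside these intervals, though a score of 7 may not be equivalent between genotypes. Divided by the ratio of the whole lists, that of EZH2 was 1.03, so this chromosome's share of the EZH2 list was not lower in KO.

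The peaks were counted in 134 bins of 1 Mb, placed by their midpoint, so that the bin at 77 to 78 Mb runs from position 77000001 to 78000000 (hg38). Of the 113 bins with a mean of at least 10 H3K27me3 peaks over WT and KO, 36 (31.9%) had at most 0.5 times as many peaks in KO and 5 (4.43%) had at least 2 times as many. Over the 1928 such bins of 23 chromosomes the shares were 23.9% and 3.16%. Of 127 bins with a mean of at least 5 EZH2 peaks, 59 (46.5%) were lower by this measure and 4 (3.15%) higher, against 41.5% and 4.53% of 1657 bins of 23 chromosomes. The EZH2 shares and the share of higher H3K27me3 bins lie near those of the genome. With each ratio divided by that of the whole lists, 29 bins were lower and 11 higher for H3K27me3, and 33 lower and 16 higher for EZH2. This scaled rule was not applied to the other chromosomes, so these counts have no genome share to set beside them. The median bin ratio was 0.750 for H3K27me3 and 0.560 for EZH2, against 0.824 and 0.583 over all chromosomes.

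**Figure D2:**
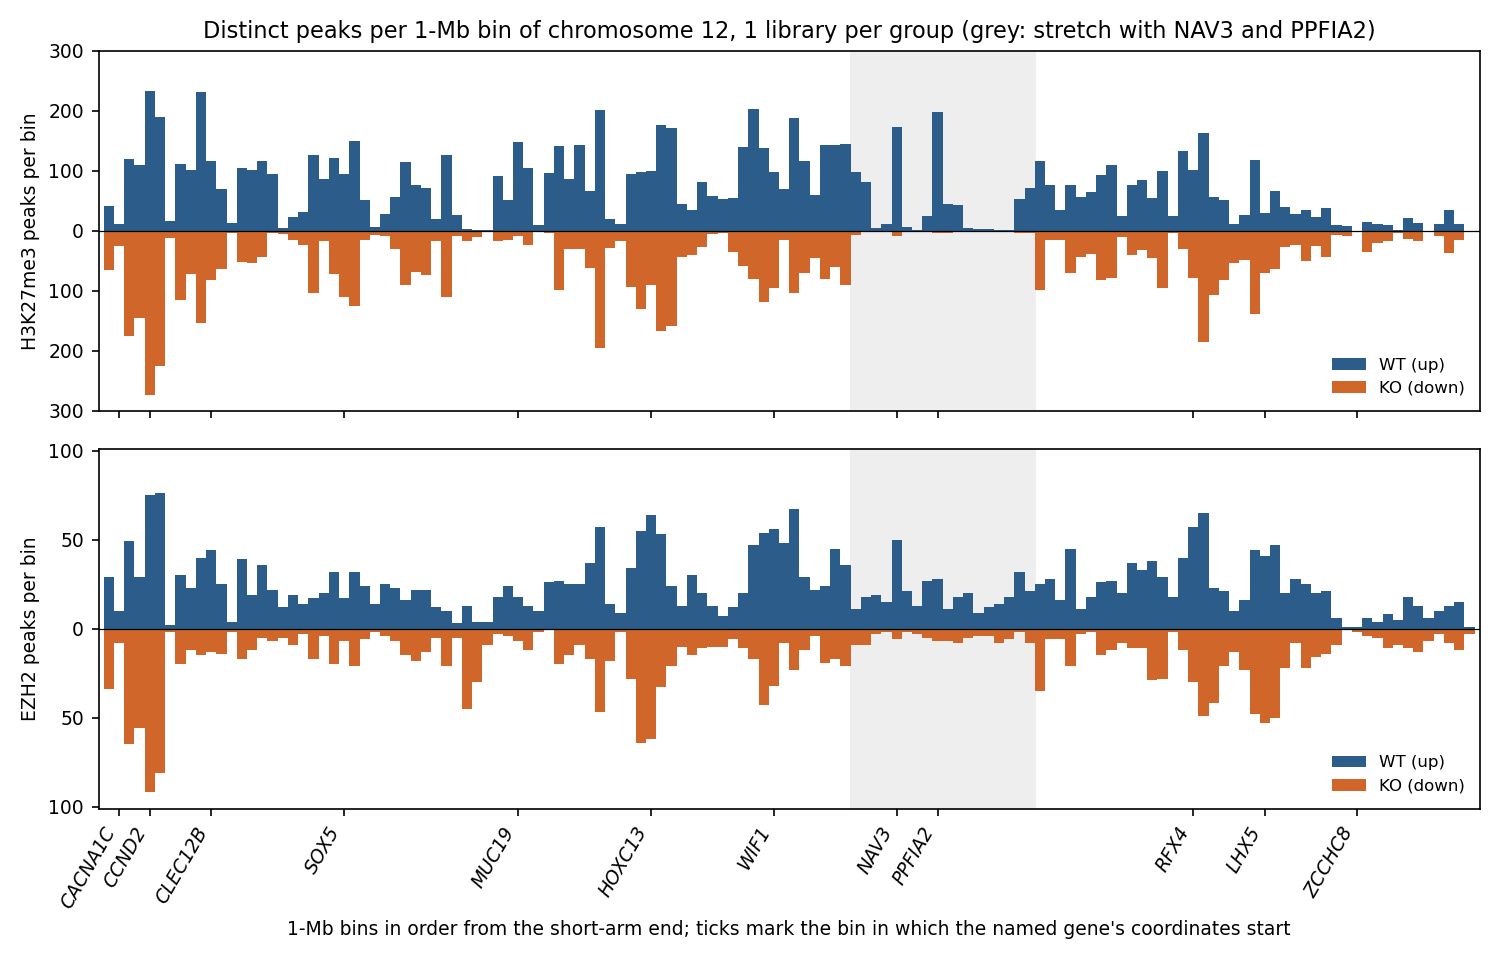
Number of distinct H3K27me3 peaks (top) and EZH2 peaks (bottom) in each of 134 1-Mb bins of chromosome 12 in order from the short-arm end, with WT drawn upward and KO downward. Ticks mark the bin in which the named gene starts, and in the grey stretch, which holds NAV3 and PPFIA2, no bin had more than 9 H3K27me3 peaks in KO.

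Near the short-arm end more peaks of both antibodies were listed in KO. The densest H3K27me3 bin of both genotypes, at 4 to 5 Mb, with the cyclin gene CCND2, the hormone gene FGF23 and the potassium channel gene KCNA1, had 234 H3K27me3 peaks in WT and 273 in KO, and 75 and 92 EZH2 peaks. Its neighbour at 5 to 6 Mb, with KCNA5 and ANO2, had 190 and 226, and 76 and 81. The bin at 2 to 3 Mb over CACNA1C, the gene of a cardiac and neuronal calcium channel, had 119 and 176, and 49 and 65. Over 0 to 6 Mb together 705 H3K27me3 peaks stood against 911 (ratio 1.29, 1.17 to 1.43) and 268 EZH2 peaks against 336 (1.25, 1.07 to 1.48). Here 49.65% of WT H3K27me3 peaks met a KO peak, compared with 22.0% on the whole chromosome.

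The lowest H3K27me3 ratio of the stretches examined belonged to one of 18 Mb on the long arm, at 73 to 91 Mb, where 825 H3K27me3 peaks were listed in WT and 40 in KO (ratio 0.0485, 0.0344 to 0.0666). Its limits were set after the bin values were seen. EZH2 peaks there numbered 357 in WT and 98 in KO (0.275, 0.217 to 0.344). H3K27me3 was fewer in KO in 17 of its 18 bins and equal, at 1 peak each, in the other, and EZH2 was fewer in all 18. Bins ranged from 1 to 199 H3K27me3 peaks in WT and from 0 to 9 in KO, and from 9 to 50 and 2 to 9 for EZH2. Of the 825 WT H3K27me3 peaks, 12 (1.46%) met a KO peak, against 23.99% outside the stretch, and of 117 with a score of 10 or more 1 did, against 38.4% of 2463 outside. With limits drawn where KO peaks are few, such low WT shares follow from the counts and add nothing to them. Of the 40 KO peaks 11 (27.5%) met a WT peak, against 32.1% outside. WT peaks in the stretch had lower scores, with 14.2% at 10 or more, against 28.5% outside. The stretch made up 27.1% of the net H3K27me3 deficit of the chromosome and 22.9% of that of EZH2, and without it the ratios were 0.756 and 0.703. Peak lists do not show how many reads or copies of the stretch each library and input held, and the part of either in this difference was not tested.

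Within that stretch the WT H3K27me3 peaks lay in a few long genes and gaps between genes. PPFIA2, with 5 kb on both sides, held 169 peaks covering 13.2% of it in WT and 4 peaks covering 0.309% in KO, with 17 and 5 EZH2 peaks. NAV3, a neuron navigator gene, held 58 and 2 H3K27me3 peaks and 28 and 2 EZH2 peaks. LIN7A, a synaptic scaffold gene, held 14 and none, with 3 and 1 EZH2 peaks. Other long neural genes had little H3K27me3 in WT as well. SYT1, the calcium sensor of synaptic vesicles, had 2 peaks and none, and MGAT4C, a glycosyltransferase gene, 3 and none, while their EZH2 peaks numbered 9 and 3, and 12 and 3. PTPRQ, a phosphatase of inner ear hair cells, had no H3K27me3 peak in either genotype but 10 and 1 EZH2 peaks. The myogenic factor genes MYF5 and MYF6, the craniofacial factor gene ALX1 and the neurotensin gene NTS had no H3K27me3 peak in either list within 5 kb. In the bins, 173 and 9 H3K27me3 peaks were counted at 77 to 78 Mb, 199 and 4 at 81 to 82 Mb, and 81 and none at 74 to 75 Mb.

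Shorter stretches with few KO peaks lay at 38 to 44 Mb, at 58 to 61 Mb and at 13 to 18 Mb. At 38 to 44 Mb 501 H3K27me3 peaks stood against 70 (0.140, 0.107 to 0.180) and 109 EZH2 peaks against 29 (0.266, 0.170 to 0.404). The gel-forming mucin gene MUC19, in this stretch, held 39 H3K27me3 peaks over the gene with 5 kb on both sides in WT and 5 in KO. At 58 to 61 Mb 193 H3K27me3 peaks stood against 37 (0.192, 0.131 to 0.274), with 40 and 31 EZH2 peaks (0.775, 0.469 to 1.27), an interval that includes 1. At 13 to 18 Mb the numbers were 420 and 157 (0.374, 0.309 to 0.450) for H3K27me3, and 128 and 46 (0.359, 0.251 to 0.507) for EZH2. The stretch from 61 to 73 Mb, with WIF1 and LGR5, held 1501 and 857 H3K27me3 peaks (0.571, 0.524 to 0.621), and at 91 to 104 Mb, just beyond 73 to 91 Mb, the ratio was 0.691 (0.625 to 0.763).

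**Figure D3:**
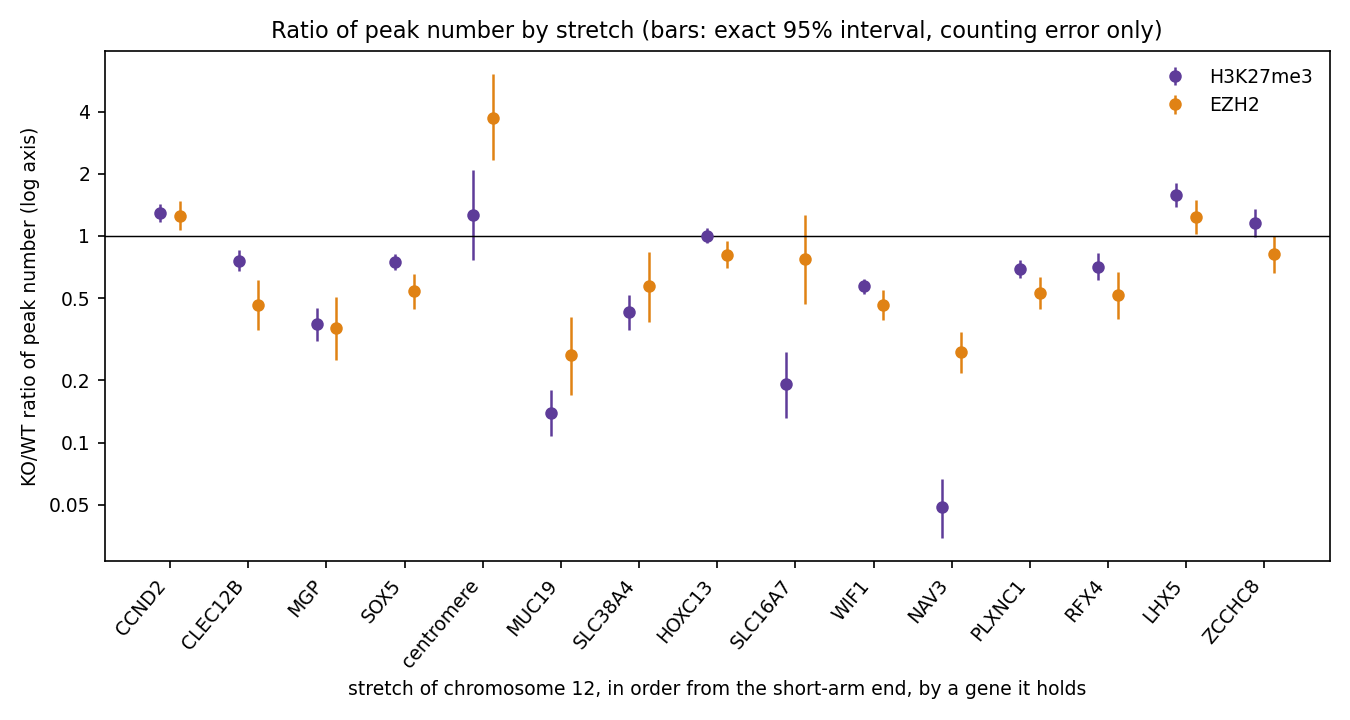
KO/WT ratio of peak number (log axis) for H3K27me3 and EZH2 in 15 consecutive stretches of chromosome 12, in order from the short-arm end and named by a gene each holds, with exact 95% intervals of the ratio of 2 counts. The stretch of NAV3 had the lowest H3K27me3 ratio (0.0485), the stretch of MUC19 the lowest EZH2 ratio (0.266), and the stretches of CCND2, LHX5 and the centromere lie above 1 for both, the last with an H3K27me3 interval that includes 1.

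Near-equal or higher H3K27me3 numbers in KO were found in a gene-dense stretch on the centromere side of the long arm and in one further out. From 47 to 58 Mb, with 282 protein-coding genes, 1022 WT and 1027 KO H3K27me3 peaks were listed (1.005, 0.921 to 1.097) and 390 and 317 EZH2 peaks (0.813, 0.699 to 0.945). From 108 to 115 Mb 359 and 564 H3K27me3 peaks (1.57, 1.37 to 1.80) and 202 and 250 EZH2 peaks (1.24, 1.02 to 1.497) were listed. The H3K27me3 bins with at least 2 times as many peaks in KO were those at 110 to 111 Mb (12 and 53), 113 to 114 Mb (29 and 71), 123 to 124 Mb (15 and 35), 1 to 2 Mb (12 and 25) and 35 to 36 Mb (3 and 17). Across 113 bins, the H3K27me3 ratio and the number of protein-coding genes had a Spearman rho of 0.453 and a Pearson r of 0.217, given as a description of bins that share libraries. For EZH2 the values over 127 bins were 0.0384 and -0.0194.

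Around the centromere the EZH2 list was longer in KO. From 34 to 38 Mb, with 1 protein-coding gene, 24 EZH2 peaks were listed in WT and 89 in KO (3.71, 2.34 to 6.09), next to 31 and 39 H3K27me3 peaks (1.26, 0.765 to 2.09). Of the 4 bins with at least 2 times as many EZH2 peaks in KO, 3 lay here, at 35 to 36 Mb (13 and 45), 36 to 37 Mb (4 and 30) and 37 to 38 Mb (4 and 9), and the other was at 33 to 34 Mb (10 and 21). Some of the highest scores of the chromosome lay here too. A peak at 35614880 to 35615051 had the highest score of the WT EZH2 list, 35, and its KO counterpart at 35614886 to 35615065 the highest of the KO list, 38, and an H3K27me3 peak of score 29 in WT and 40 in KO lay on the same bases. Sequence next to a centromere is repetitive, so reads can be placed there from several copies, and these values are uncertain.

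**Figure D4:**
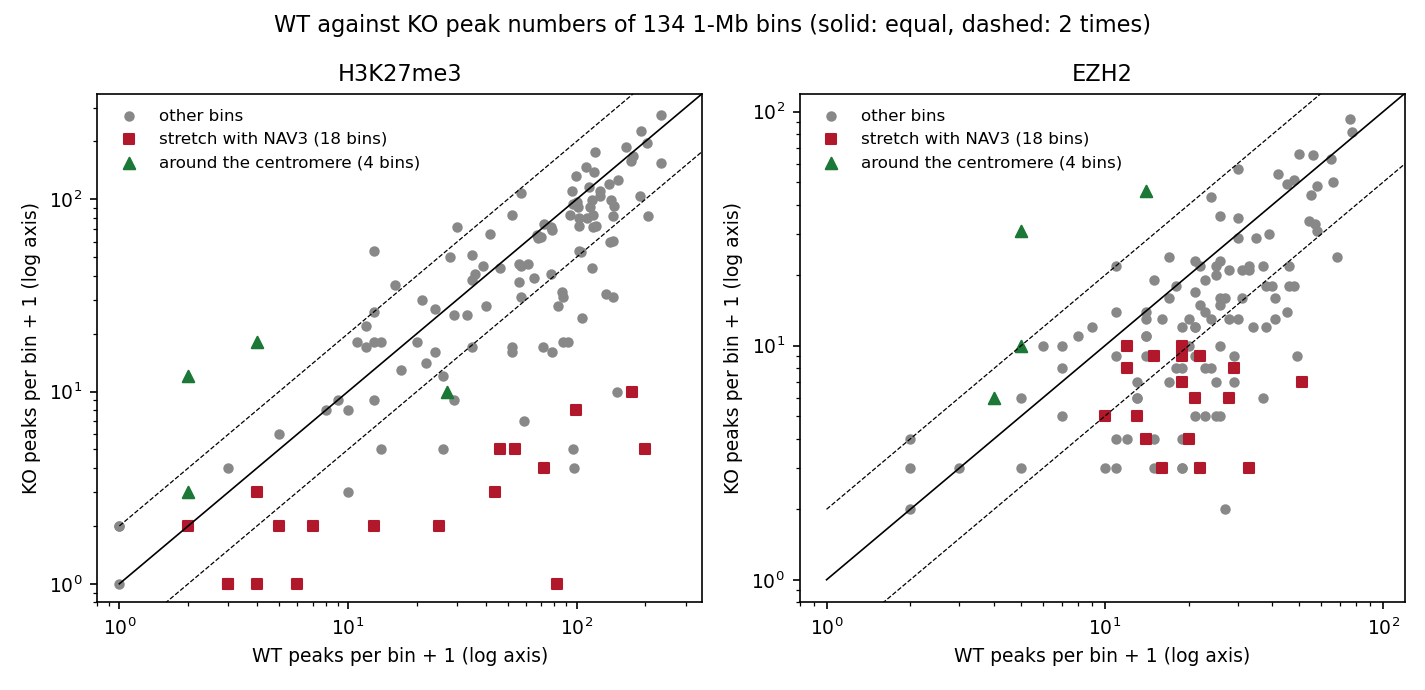
KO against WT peak number of each of 134 1-Mb bins, for H3K27me3 (left) and EZH2 (right), on log axes after adding 1 peak. Squares are the 18 bins of the stretch with NAV3, triangles the 4 bins around the centromere and circles all other bins, and 17 of the 18 squares lie below the line of equal numbers for H3K27me3.

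Bins low in KO for one antibody were often low for the other. Of 110 bins with enough peaks of both, 27 were at 0.5 times or lower for both antibodies, 8 for H3K27me3 alone, 21 for EZH2 alone and 54 for neither. The ratios of the 110 bins had a Spearman rho of 0.657 and a Pearson r of 0.707. Both ratios of a bin share the WT and KO input libraries, whose part in this was not tested. WT H3K27me3 and WT EZH2 bin numbers had a rho of 0.715 over 134 bins, and the KO numbers 0.774.

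EZH2 peaks lay on H3K27me3 peaks more often in the KO lists. In WT 660 of 3296 EZH2 peaks, 20.02% (18.7 to 21.4), met an H3K27me3 peak by at least 1 bp, and in KO 632 of 2163, 29.2% (27.3 to 31.2), although H3K27me3 covered 2.81% of the chromosome in WT and 1.94% in KO. Both shares were high among 23 chromosomes, at place 22 from the lowest in WT and place 23 in KO. The share differed along the chromosome. At 0 to 6 Mb it was 33.6% (27.95 to 39.6) in WT and 49.7% (44.2 to 55.2) in KO, and at 52 to 54 Mb, with keratin genes and HOXC13, 36.1% (27.5 to 45.5) and 53.2% (44.1 to 62.1). At 73 to 91 Mb it was 6.72% (4.36 to 9.84) and 2.04% (0.248 to 7.18), and at 34 to 38 Mb 4.17% (0.105 to 21.1) of only 24 peaks and 13.5% (7.17 to 22.4) of 89. H3K27me3 coverage differed too. It was 0.320 Mb in WT and 0.421 Mb in KO at 0 to 6 Mb, and 0.103 and 0.118 Mb at 52 to 54 Mb. At 73 to 91 Mb it was 0.292 and 0.01085 Mb, and at 34 to 38 Mb 0.009345 and 0.01145 Mb. The part of local coverage in these shares was not tested. EZH2 peaks listed in both genotypes met H3K27me3 in 42.2% (35.4 to 49.2) of cases in WT, against 18.5% (17.2 to 19.9) of those listed in WT only. The former were wider, and the part of width in this was not tested.

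Most peaks of a genotype did not meet a peak of the other. Of WT H3K27me3 peaks 22.0% (21.2 to 22.9) met a KO peak, and of KO peaks 32.1% (30.95 to 33.2) met a WT peak. For EZH2 the shares were 6.402% (5.59 to 7.29) and 9.99% (8.75 to 11.3). Among 23 chromosomes the WT shares were high, at place 21 from the lowest for H3K27me3 and place 19 for EZH2. The lowest and highest H3K27me3 shares were 1.89% on chromosome X and 25.7% on chromosome 17. Sharing varied with width and score. A wider peak more readily meets another by at least 1 bp, and the part of this rule in the width values was not tested. Of WT H3K27me3 peaks under 250 bp 12.2% were shared and of 63 peaks of 2 kb or more 87.3% (76.5 to 94.4), while all 41 KO peaks of that width met a WT peak. Of WT EZH2 peaks 2.63% were shared below a score of 7 and 61.3% (42.2 to 78.2) of 31 at scores of 15 to 19. How often repeat libraries of 1 genotype would share peaks is unknown here.

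Gene by gene, coverage was measured over windows of 5 kb on both sides of each gene end. Of 1024 protein-coding genes 274 had an H3K27me3 peak in WT and 251 in KO, with 191 in both, 83 (8.11%) in WT only and 60 (5.86%) in KO only. Over 19974 genes of 23 chromosomes the WT-only share was 7.84% and the KO-only share 5.48%. EZH2 marked 230 and 158 genes, with 102 in both, 128 (12.5%) in WT only and 56 (5.47%) in KO only, against 9.65% and 4.52% of the 19974. These shares are close to those of all genes. The median change of covered percent was 0 with both antibodies, since 690 and 738 genes had no peak in either genotype.

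The HOXC cluster was marked at its low-coordinate end only. Of 9 genes HOXC12 and HOXC13 had both marks in both genotypes, and the other 7 had none. Of all 1024 genes 191 had H3K27me3 in both genotypes and 102 had EZH2 in both. HOXC13 had 13 EZH2 peaks over 29.3% of its window in WT and 2 peaks over 5.26% in KO, with 12.4% and 7.57% under H3K27me3. HOXC12, whose window overlaps that of HOXC13, had 18.1% and 4.22% under EZH2 and 2.69% and 9.09% under H3K27me3. Next to them, without a protein-coding gene, an EZH2 and an H3K27me3 domain of the KO lists had higher coverage in KO. Each is a run of KO peaks joined across gaps of up to 3 kb and named for its covered bases in KO. That choice favours higher coverage in KO. From 53919042 to 53933556, 5275 bp from HOXC13, 6 EZH2 peaks covered 23.9% in WT and 14 peaks covered 50.3% in KO, and an H3K27me3 domain from 53873352 to 53898492 was covered to 42.7% and 57.7%.

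Other developmental factors were mixed under H3K27me3, and under EZH2 more of them had higher than lower coverage in KO. Of 26 genes outside HOXC 12 had an H3K27me3 peak in each genotype, with 3 listed for WT alone and 3 for KO alone, and covered percent was higher in KO in 8 and lower in 7. EZH2 marked 8 in WT and 11 in KO, with MYF6 in WT only and DBX2, LMO3, NEUROD4 and TBX3 in KO only (15.4%). Covered percent under EZH2 was higher in KO in 10 and lower in 2, and 14 had no EZH2 peak in either genotype. Over all 1024 genes EZH2 marked 230 and 158, with 5.47% in KO only, and was higher in KO in 111 and lower in 175. H3K27me3 marked 274 and 251 of the 1024, higher in 137 and lower in 196. LHX5, a forebrain LIM-homeobox gene, had 9 EZH2 peaks over 15.2% in WT and 10 over 23.03% in KO, with 3.68% and 1.45% under H3K27me3. SOX5, a factor of cartilage and neurons, had 12.5% and 14.4% under EZH2, 24.2% and 20.8% under H3K27me3, and 144 and 157 H3K27me3 peaks over the whole gene. NEUROD4, a proneural factor, had H3K27me3 over 16.5% and 29.1%. RFX4 had EZH2 over 23.2% and 12.9%, and its domain from 106577210 to 106592364, the one with the most covered bases in the WT EZH2 list when peaks were joined across gaps of up to 3 kb, was covered to 46.1% and 29.5%. WT peaks set the limits of that RFX4 domain, which favours higher coverage in WT. It contains the promoter sequence printed above.

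CCND2, which encodes cyclin D2, had the EZH2 domain with the most covered bases in KO. From 4262052 to 4279629, across the low-coordinate end of the gene, 6 EZH2 peaks covered 21.7% in WT and 13 peaks covered 47.6% in KO, with H3K27me3 over 24.01% and 30.1%. KO peaks set the limits of this domain, which favours higher coverage in KO. The window of CCND2, set by the gene ends, had EZH2 over 8.23% and 25.7%. Of 16 cell cycle and tumour genes CCND2 was the one with EZH2 in both genotypes. ERBB3 and GLI1 had EZH2 in KO only, 12.5% of the list against 5.47% of all 1024 genes. GLI1, the effector of hedgehog signalling, had no peak in WT and 4.81% under H3K27me3 and 3.64% under EZH2 in KO. MDM2 had 1 H3K27me3 peak in WT (1.52%) and none in KO.

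Among 28 ligands, receptors and inhibitors, 11 were marked by H3K27me3 in WT and 8 in KO, and 12 by EZH2 in each. Of all 1024 genes H3K27me3 marked 274 and 251, and EZH2 230 and 158. WIF1, a secreted WNT inhibitor, held the H3K27me3 domain with the most covered bases in WT. That domain, from 65042139 to 65105429, had 40 peaks in each genotype, over 50.5% in WT and 33.95% in KO, and the next one, to 65151091, 30 and 26 peaks over 55.0% and 46.6%. WT peaks set the limits of both domains, which favours higher coverage in WT. EZH2 covered 7.70% and 6.98% of the WIF1 window. LGR5, a stem cell receptor of R-spondins, had 44 H3K27me3 peaks over the whole gene in WT and 7 in KO, and 21 and 6 EZH2 peaks. The neighbours WNT1 and WNT10B, whose windows overlap, had 11.4% and 19.3%, and 15.3% and 8.85% under EZH2. FGF23, the phosphate-regulating hormone, had 15.9% and 27.1% under H3K27me3, and FGF6 had 0.930% and 11.5%. In windows of 1 kb around the gene ends the order was reversed for FGF23 under H3K27me3 (22.6% and 5.60%) and for WNT1 under EZH2 (8.97% and 6.25%). With scores of 7 or more FGF23 had 15.9% and 17.1%. PTHLH, the parathyroid hormone-like hormone, had 5 EZH2 peaks over 7.70% in WT and none in KO.

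Of 37 neuronal and ion channel genes 23 had H3K27me3 in each genotype, where 274 and 251 of all 1024 had it, with CNTN1, NAV3 and TMEM132B in WT only and ASIC1, RIMBP2 and TMEM132C in KO only, and EZH2 marked 23 and 21, where it marked 230 and 158 of the 1024. KCNA1 had similar coverage in both genotypes, 33.7% and 29.8% under H3K27me3 and 17.4% and 17.7% under EZH2. KCNA5, another voltage-gated potassium channel gene of the cluster, had 8.82% and 21.9%, and 4.11% and 13.2%, though within 1 kb of its ends EZH2 covered 4.45% and 0.675%. CACNA1C held 102 and 145 H3K27me3 peaks and 43 and 55 EZH2 peaks over the whole gene. TPH2, the serotonin-making enzyme of neurons, had 31.3% and 20.4% under H3K27me3, and 36 and 20 peaks over the whole gene. PLXNC1, a semaphorin receptor, had EZH2 over 17.8% and 6.83%, with 34 H3K27me3 peaks over the gene in each genotype. ANO2, a chloride channel gene, had EZH2 over 10.2% and 2.10%, and its neighbour VWF, the blood clotting factor whose window overlaps, 9.33% and none.

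**Figure D5:**
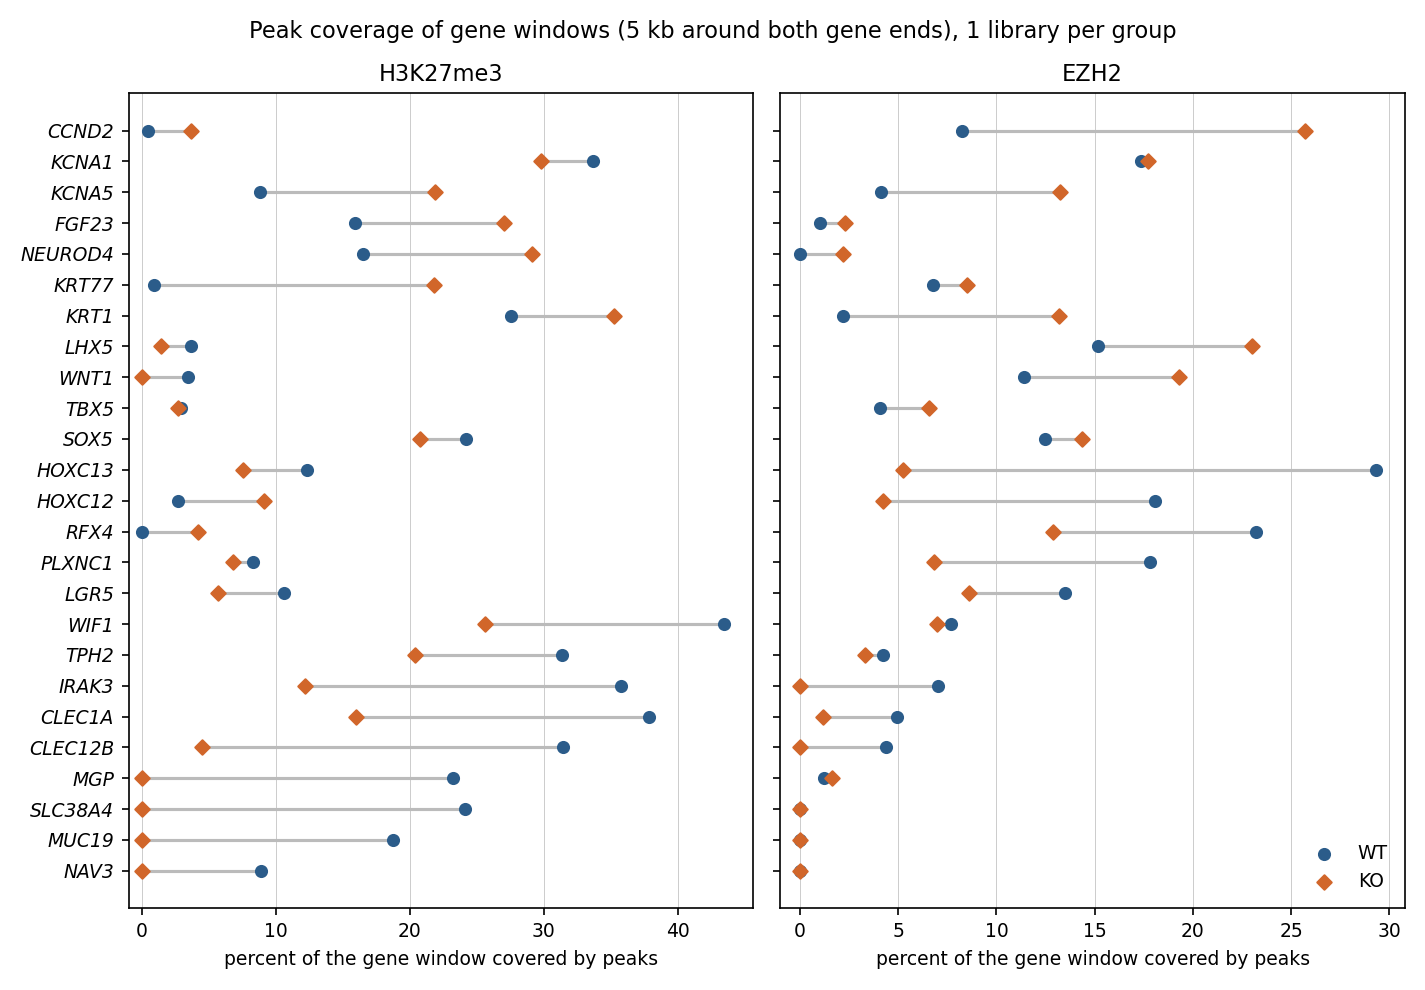
Percent of the window around the ends of 25 named genes covered by H3K27me3 peaks (left) and EZH2 peaks (right) in WT (circles) and KO (diamonds), 1 library per group. CCND2 and HOXC13 differ most under EZH2, in opposite directions (8.23% and 25.7%, 29.3% and 5.26%). MGP, SLC38A4, MUC19 and NAV3 have no H3K27me3 in these windows in KO, though the last 3 have peaks inside the gene.

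Keratin genes had more H3K27me3 listed in KO. Of 27 genes H3K27me3 marked 13 in WT and 16 in KO, the additional ones being KRT3, KRT71 and KRT75, and covered percent was higher in KO in 12 and lower in 4, with a list mean of 6.39% and 8.98%. The 3 in KO only are 11.1% of the list, against 5.86% of all 1024 genes. Of the 1024, 137 were higher and 196 lower in KO, with means of 2.09% and 1.72%. EZH2 marked 16 keratin genes in WT and 13 in KO, lower in 8 and higher in 10. KRT77, an epidermal keratin, had 1 peak over 0.925% in WT and 10 over 21.8% in KO, and KRT1, of differentiated epidermis, 27.6% and 35.2%, with EZH2 over 2.17% and 13.2%. Within 1 kb of the gene ends the H3K27me3 order was reversed for KRT1 (14.9% and 11.7%) and KRT6A (21.9% and 18.6%), and with scores of 7 or more EZH2 covered 2.17% and 4.47% of the KRT1 window. The stress keratins KRT6A, KRT6B and KRT6C had 31.5% and 37.0%, 24.6% and 14.6%, and 20.3% and 34.2%, but they are near-identical copies and their values are uncertain. KRT8 and KRT18, the keratins of simple epithelia such as the renal tubule, had no H3K27me3 in either genotype, and KRT8 had 1 EZH2 peak in WT. The bin of most of these genes, at 52 to 53 Mb, had 98 and 131 H3K27me3 peaks.

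In the natural killer complex most genes had lower coverage in KO. Of 26 C-type lectin and NK receptor genes 18 were marked by H3K27me3 in WT and 17 in KO, with lower covered percent in KO in 15 and higher in 4, and a list mean of 12.8% and 8.35%. Over all 1024 genes 196 were lower and 137 higher, with means of 2.09% and 1.72%. EZH2 marked 13 and 6, 9 of them (34.6%) in WT only, where 12.5% of all 1024 genes were. CLEC12B had 13 H3K27me3 peaks over 31.5% in WT and 4 over 4.46% in KO, and EZH2 over 4.37% and none. CLEC1A had 37.9% and 16.02%, CLEC1B, the platelet receptor of podoplanin, 39.0% and 34.8%, and CLEC4D went the other way with 18.5% and 34.6%. Windows of neighbouring members overlap, so they are not separate measurements. Over 8 to 11 Mb 450 H3K27me3 peaks stood against 308 (0.684, 0.590 to 0.793), close to the ratio of 0.694 for the whole chromosome, and 107 EZH2 peaks against 40 (0.374, 0.253 to 0.542), where the whole chromosome gave 0.656.

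Of 26 other immune and blood cell genes 14 were marked by H3K27me3 in WT and 9 in KO, all 9 marked in both. The 5 in WT only, 19.2% against 8.11% of all 1024 genes, included IL22 and NFE2. EZH2 marked 5 in WT and 3 in KO, none in both, with list means of 0.524% and 0.466%. Over all 1024 genes EZH2 marked 230 and 158, with 102 in both and means of 0.748% and 0.595%. IFNG, the interferon of T and NK cells, had 14.3% and 19.5% under H3K27me3, and no EZH2 in WT and 4 peaks over 9.25% in KO, and within 1 kb of its ends 24.4% and 20.04% under H3K27me3. Its neighbours IL26 and IL22 had 17.0% and 5.94%, and 10.7% and none. IRAK3, an inhibitor of Toll-like receptor signalling, had H3K27me3 over 35.8% and 12.2% and EZH2 over 7.004% and none.

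Of 31 solute transport genes H3K27me3 marked 11 in WT and 7 in KO, with 5 (16.1%) in WT only, against 8.11% of all 1024 genes, and covered percent was lower in KO in 11 and higher in 1. EZH2 marked 7 and 5, lower in 6 and higher in 5. SLC38A4, an amino acid transporter, had 8 peaks over 24.1% and none, and 38 and 6 peaks over the whole gene. SLC5A8, a monocarboxylate transporter of the renal tubule, had 14.4% and 9.47%. SLCO1A2, an organic anion transporter, had 7.56% and none. The water channel genes AQP2, AQP5 and AQP6 had no H3K27me3 in either genotype within these windows, and AQP2 and AQP5 had EZH2 in WT only. Of 10 matrix genes H3K27me3 marked 4 in WT and 2 in KO, among them MGP, an inhibitor of calcification, at 23.2% and none and MFAP5, a microfibril protein, at 14.5% and none. EZH2 marked 4 and 3 of the 10, higher in KO in 3 and lower in 1, with a list mean of 1.5% and 1.75%. Of all 1024 genes H3K27me3 marked 274 and 251, lower in KO in 196 and higher in 137. EZH2 marked 230 and 158 of the 1024, lower in 175 and higher in 111.

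Olfactory receptor genes were nearly all marked by H3K27me3. Of 17, H3K27me3 marked 17 in WT and 16 in KO, with lower covered percent in KO in 8 and higher in 9, and EZH2 marked 6 and 5. Of all 1024 genes H3K27me3 marked 274 and 251, and EZH2 230 and 158. OR6C2 had 30.2% and 18.9%, and OR6C1 8.30% and 14.8%, or 6.07% and none when only peaks with a score of 7 or more were kept. Of 19 bitter taste and salivary genes H3K27me3 marked 6 in WT and 6 in KO, 5 of them in both. TAS2R8 had 13.1% and 1.05% under H3K27me3, and its neighbour TAS2R9, marked in WT only, 13.6% and none. EZH2 marked 5 in WT and 1 in KO, none in both. The WT-only share under EZH2 was 26.3%, against 12.5% of all 1024 genes. Receptor families share sequence, and their values carry that uncertainty. Of 11 muscle genes 5 and 3 were marked by H3K27me3.

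Housekeeping and chromatin genes were nearly free of peaks. Of 24 housekeeping genes none had H3K27me3 in WT and 2, NDUFA9 and SNRPF, had in KO, and LDHB had the 1 EZH2 peak. Of all 1024 genes 690 had no H3K27me3 and 738 no EZH2 in either genotype. Of 19 chromatin regulators PRMT8, a brain-restricted arginine methyltransferase, had 1.97% and 11.03% under H3K27me3, and no other was marked by either antibody. AEBP2, a PRC2 accessory subunit, PHC1, a PRC1 subunit, and KDM2B, which recruits PRC1 to CpG islands, had no peak in their windows. ZCCHC8, at 122471600 to 122500932, had no peak of either antibody in either genotype within 5 kb of its ends or inside the gene, and its bin at 122 to 123 Mb held 0 and 1 H3K27me3 and 1 and 2 EZH2 peaks.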

How the data were processed

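Chromatin of ACHN cells was precipitated for H3K27me3 or EZH2, 1 library per antibody and genotype, and 2 input libraries complete the 6 samples. Per the submitters' processing notes, the tools were cutadapt 1.9.3 (trimming) and Bowtie2 2.2.4 (alignment), with hg38 as build. For the peak caller and for read depth, nothing is given in the sources used here. The lists deposited by the authors hold start, end and length of each peak in bp (other values) and a score per peak of undefined scale, used only to rank or filter. A value of 1e-3 stands in the peak names. The genotype label and the title gave each group. Identical lines were counted once.

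Peaks were counted in Python 3.11.15 (pandas 2.3.3, NumPy 2.4.6, SciPy 1.17.1) by midpoint in bins of 1 Mb. Bin calling was tried on simulated data, with changes well beyond 2 times and in bins well above the minimum count. Those simulations do not show how reliable calls near these limits are. Overlap needed at least 1 bp. The RefSeq gene table has no strand or exons, so gene windows span 5 kb on both sides of both gene ends. Named genes were, per antibody, the 6 largest deficits and 6 largest excesses in KO, the 3 highest per list, up to 2 per direction from each of 15 gene lists, and 11 landmark genes. Other genes named to complete a list or a stretch were chosen after their values were seen, as were the limits of the stretches. Members and lists were chosen with earlier results of these data known. Alternatives were a score of at least 7, joined peaks, covered length, shares of the whole list, other overlaps, 500-kb bins, doubled minimum counts and other gene windows. No count model was run, since there are no replicates.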

Additional observations from a re-analysis of the deposited data

How the results depend on the processing

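No paired analysis was possible because each group has 1 library, and for the same reason no library could be left out. The KO/WT ratio of H3K27me3 peak number moved from 0.694 to 0.426 (scores of 7 or more), 0.925 (shares of the whole list) and 0.756 (without 73 to 91 Mb), and that of EZH2 from 0.656 to 0.316, 1.03, which is reversed, and 0.703, and to 0.732 by covered length. Joined peaks gave 0.686 and 0.631. Leaving out 73 to 91 Mb, or 34 to 38 Mb (0.692 and 0.634), was chosen after seeing the data. With an overlap of 50% of the peak, a distance of 1 kb, or scores of 7 or more, 12.5%, 42.1% and 17.8% of WT H3K27me3 peaks met a KO peak, and 4.13%, 15.7% and 5.41% of WT EZH2 peaks. EZH2 peaks met H3K27me3 in 13.8%, 40.3% and 18.4% of cases in WT and 20.1%, 50.2% and 26.9% in KO. In 500-kb bins 76 were lower and 11 higher for H3K27me3, and 115 and 13 for EZH2. With scores of 7 or more the numbers were 66 and 1, and 91 and 2. Relative to the whole lists 11 were higher for H3K27me3, and 33 lower and 16 higher for EZH2. With the minimum doubled 3 H3K27me3 bins were higher. These bin alternatives were counted on this chromosome only. Of 52 gene values differing by at least 5 points, 46 did not reverse within 1 kb of the gene ends. With scores of 7 or more 51 did not reverse, and over the whole gene 52 did not. The 46 include IQSEC3, SLCO1A2 and CNTN1, which had no H3K27me3 within 1 kb in either genotype and so kept no difference. Only 18, 38 and 41 of the 52 stayed within 1.5 times their size, in the same order of settings. The reversed KO minus WT differences within 1 kb were -16.97 (FGF23), -3.35 (KRT6A), -3.20 (KRT1) and -4.37 points (IFNG) for H3K27me3, and -3.77 (KCNA5) and -2.72 (WNT1) for EZH2, and that of OR6C1 with scores of 7 or more was -6.07. The cause was not tested in any of these. Read depth, which limits how many peaks a list can hold, is unknown here.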
